A study of Homo sapiens with 24 samples.

Results

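The 41 interferon-stimulated genes described here were taken as a list of symbols, and all 41 were found by symbol among 38048 genes in the deposited gene table. The list was not filtered by a measured value, but it was chosen with earlier results of these data known. Of these, 39 passed the filter on low counts and were tested among 16640 genes. The other two were IFI27, with 4 counts over all 24 libraries, and IFI44L, with 134 counts over all libraries. Poly(A) RNA was sequenced from the MV4-11 line, which was established from a human acute myeloid leukaemia, with 3 libraries (A, B and C) in each of 8 groups, all labelled PRMT5 +/+. Cells were treated for 3 days with PRT220, an inhibitor of the arginine methyltransferase PRMT5, at 3 nM, with GSK-LSD1, an inhibitor of the lysine demethylase LSD1, at 10 nM, or with both (PRT220+GSK-LSD1). Others were given MS023, which blocks type I arginine methyltransferases, the pair MS023+GSK-LSD1, MC4455 or MC4491. No dose or duration was labelled for these 4 groups. DMSO, the solvent, was the control for all 7 treatments. Nothing in the labels told whether libraries of a group were grown as separate cultures, and a p-value here reflects only their spread, which may be technical.

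Interferons are secreted proteins that cells release when they sense viral or misplaced nucleic acid. Type I interferons bind the receptor IFNAR1-IFNAR2 and act through the kinases JAK1 and TYK2, and a complex that includes STAT2 and IRF9 then binds the interferon-stimulated response element in promoters. Interferon gamma acts through the gamma-activated site. The induced genes encode proteins that block viral entry, cut or sequester viral RNA, lower the supply of nucleotides, or feed back on the pathway itself. In monocytic cells a part of this set is also expressed without interferon, SAMHD1 being the best-known case.

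Promoter sequences of 6 of these genes show the element's letters in some windows and windows without these exact letters. ISG15 and IFIT1 are textbook interferon targets and were called higher with no treatment. IFIT5 and HERC5 were called higher with GSK-LSD1, and OAS1 and SAMHD1, which were also called higher with GSK-LSD1, had no match to these exact letters. Each window is given 5′ to 3′ on the strand of the gene, from 250 bases before to 50 after the RefSeq start in GRCh38.p14, and capitals mark matches to the element's letters, GAAA and again GAAA with any 2 bases between them, on either strand, overlapping matches included. The windows are ISG15 at chr1:1013247-1013546 (plus strand), IFIT1 at chr10:89392373-89392672 (plus strand), IFIT5 at chr10:89414318-89414617 (plus strand), HERC5 at chr4:88456869-88457168 (plus strand), OAS1 at chr12:112906712-112907011 (plus strand) and SAMHD1 at chr20:36951659-36951958 (minus strand).
ISG15: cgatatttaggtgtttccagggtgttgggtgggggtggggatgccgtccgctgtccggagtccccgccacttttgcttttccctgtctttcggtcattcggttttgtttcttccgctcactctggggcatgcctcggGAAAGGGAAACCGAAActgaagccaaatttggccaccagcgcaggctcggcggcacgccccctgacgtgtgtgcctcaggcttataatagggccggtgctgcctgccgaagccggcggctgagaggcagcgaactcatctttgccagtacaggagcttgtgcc
IFIT1: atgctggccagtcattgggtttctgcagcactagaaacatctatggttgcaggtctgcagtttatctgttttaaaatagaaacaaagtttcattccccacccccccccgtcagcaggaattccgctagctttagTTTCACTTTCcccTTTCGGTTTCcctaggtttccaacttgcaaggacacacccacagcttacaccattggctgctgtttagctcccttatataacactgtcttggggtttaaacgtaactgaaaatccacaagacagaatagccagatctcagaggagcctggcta
IFIT5: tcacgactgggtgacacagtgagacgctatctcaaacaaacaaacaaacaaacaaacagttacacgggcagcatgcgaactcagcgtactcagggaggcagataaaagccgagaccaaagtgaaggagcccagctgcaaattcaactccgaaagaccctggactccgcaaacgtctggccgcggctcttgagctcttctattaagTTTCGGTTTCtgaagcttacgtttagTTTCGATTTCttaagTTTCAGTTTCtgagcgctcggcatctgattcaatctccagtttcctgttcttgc
HERC5: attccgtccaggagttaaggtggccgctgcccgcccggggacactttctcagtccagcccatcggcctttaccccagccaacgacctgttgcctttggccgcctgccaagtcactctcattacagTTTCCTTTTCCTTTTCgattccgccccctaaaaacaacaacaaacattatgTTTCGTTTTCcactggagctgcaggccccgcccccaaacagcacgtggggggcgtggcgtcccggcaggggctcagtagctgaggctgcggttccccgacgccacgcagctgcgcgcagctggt
OAS1: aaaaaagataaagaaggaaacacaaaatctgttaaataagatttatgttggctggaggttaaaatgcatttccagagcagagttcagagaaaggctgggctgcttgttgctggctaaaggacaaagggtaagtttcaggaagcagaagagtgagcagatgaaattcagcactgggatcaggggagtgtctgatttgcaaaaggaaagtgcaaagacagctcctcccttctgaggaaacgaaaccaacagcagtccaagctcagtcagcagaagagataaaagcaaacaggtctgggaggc
SAMHD1: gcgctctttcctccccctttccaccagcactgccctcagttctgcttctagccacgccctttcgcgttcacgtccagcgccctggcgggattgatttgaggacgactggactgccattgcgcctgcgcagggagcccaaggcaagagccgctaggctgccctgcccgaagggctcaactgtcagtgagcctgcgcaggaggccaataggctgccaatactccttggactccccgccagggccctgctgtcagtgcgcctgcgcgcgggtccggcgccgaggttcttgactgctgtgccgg

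RefSeq promoter windows were found for 31 of the 41 genes. The response element letters were present in at least 1 window of 20 of these 31 genes (64.5%), against 4.38% of all 27305 genes with a window. The gamma-activated site letters TTCNNNGAA, searched on both strands, were present in 8 of the 31 (25.8%), against 9.38% of all genes. IRF1, IRF9 and OAS1 were among these 8, and the OAS1 match began 168 bases before the start (offset -168). Such matches describe letters in a window and are not evidence of binding.

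The gene table held between 32495285 and 61090511 estimated counts per library. Gene positions below are on GRCh38. Levels below are CPM after TMM scaling, given per library in the order A, B, C, and tests are edgeR's quasi-likelihood test, adjusted by Benjamini-Hochberg over all genes tested, called at an adjusted p below 0.05. The 8 markers of the labelled cell type, among them CD33, FLT3, HOXA9 and SPI1, summed to between 1230 and 1470 CPM in every library. In each group with GSK-LSD1, 3 of them (CD33, MEIS1 and CSF1R) were called higher and 3 (FLT3, MPO and CEBPA) lower. In 8 libraries the gene RRP9 stood between 0.677 and 1.73 CPM, and in the other 16 between 29.1 and 36.1 CPM. The low ones were all 3 PRT220 libraries, PRT220+GSK-LSD1 C, MS023 A and C, MS023+GSK-LSD1 B and DMSO C. Calls against DMSO that were lost with a term for these 8 libraries in the fit are marked beside the value for the genes named. DMSO C was the highest DMSO library for 23 of the 39 genes and DMSO A the lowest for 25, while each was so for 35.1% of all genes tested.

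Monocyte and macrophage markers moved in 6 of the 7 treatments, and by most in the groups with GSK-LSD1. The 8 markers, among them ITGAM, CD86, LYZ and CD163, summed to between 2780 and 2920 CPM with GSK-LSD1, 2340 to 2530 CPM with PRT220+GSK-LSD1 and 2160 to 2480 CPM with MS023+GSK-LSD1, against 1120 to 1150 CPM in DMSO. In each of these groups 6 of the 8 were called higher and FCGR1A was called lower. CD163 was at 0 in 14 libraries and at most 0.0229 CPM in any library without GSK-LSD1. It passed the filter on low counts only through the groups with GSK-LSD1, so a call of it there is no independent support. The sum was 1310 to 1400 CPM with PRT220, 1090 to 1190 CPM with MS023, 1250 to 1400 CPM with MC4455 and 1220 to 1340 CPM with MC4491. LYZ made up most of each sum, and by gene 3 markers were called higher and 1 lower with PRT220, 5 and 1 with MC4455, 4 and 0 with MC4491, and 0 with MS023. MPEG1 had 86.4, 98.3 and 99.4 CPM with PRT220, against 41.5, 47.3 and 43.7 CPM in DMSO. The part of this marker change in the results below was not tested. In bulk RNA, more cells that express a gene and more RNA per cell cannot be told apart. Markers of T, NK and B lymphocytes summed to between 23.6 and 30.9 CPM over all libraries, with MS4A1 at 0 in all 24. Erythroid and megakaryocyte markers summed to 19.5 to 34.9 CPM, and epithelial and fibroblast markers to 15 to 28.9 CPM. Plasmacytoid dendritic cell markers, a cell type known for high interferon output, summed to 155 to 232 CPM, most of it from genes other than CLEC4C and LILRA4, which were at 0 in 10 and 8 libraries.

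Most called genes were higher, in the groups with GSK-LSD1, with PRT220, or with the MC compounds, fewer were lower, and 8 were called in no treatment. Against DMSO, 11 of the 39 genes were called higher and 2 lower with PRT220, where 13.8% of all genes tested were higher and 11.1% lower. With GSK-LSD1, 15 were higher and 3 lower (17.6% and 15% of all genes). With PRT220+GSK-LSD1, 18 were higher and 3 lower (24.4% and 22.1% of all genes). With MS023+GSK-LSD1, 15 were higher and 4 lower (25.1% and 23.3% of all genes).

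With MC4455, 12 genes were higher and 2 lower (18.5% and 19.2% of all genes), and with MC4491, 10 were higher and 4 lower (15.5% and 15.2% of all genes). With MS023 alone, edgeR called 0 of the 39 genes, where 0.889% of all genes were higher and 1.36% lower. In that comparison 5 of the 39 had an unadjusted p below 0.05, and DESeq2 also called 0. The median log2 difference of the 39 genes from DMSO was -0.01 with PRT220, 0.12 with GSK-LSD1, 0.21 with PRT220+GSK-LSD1, -0.08 with MS023, 0.20 with MS023+GSK-LSD1, 0.18 with MC4455 and 0.14 with MC4491, and that of all genes tested lay between 0 and 0.04. With a term in the fit for the 8 libraries with low RRP9, PRT220 had 7 genes higher and 5 lower, of which 9 were among the 13 calls above. Of all genes tested, 3940 were called with the term and 4139 without it. The counts for the MC compounds moved with single libraries, as did those of all genes. With MC4455, 9 of the 39 were called without DMSO A and 8 without MC4455 B. Of all genes, 5048 and 4963 were then called, against 6264 with every library. With MC4491, 9 of the 39 were called without DMSO A, 6 without MC4491 A and 9 without MC4491 B. Of all genes, 3605, 3648 and 3957 were then called, against 5112 with every library.

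**Figure D1:**
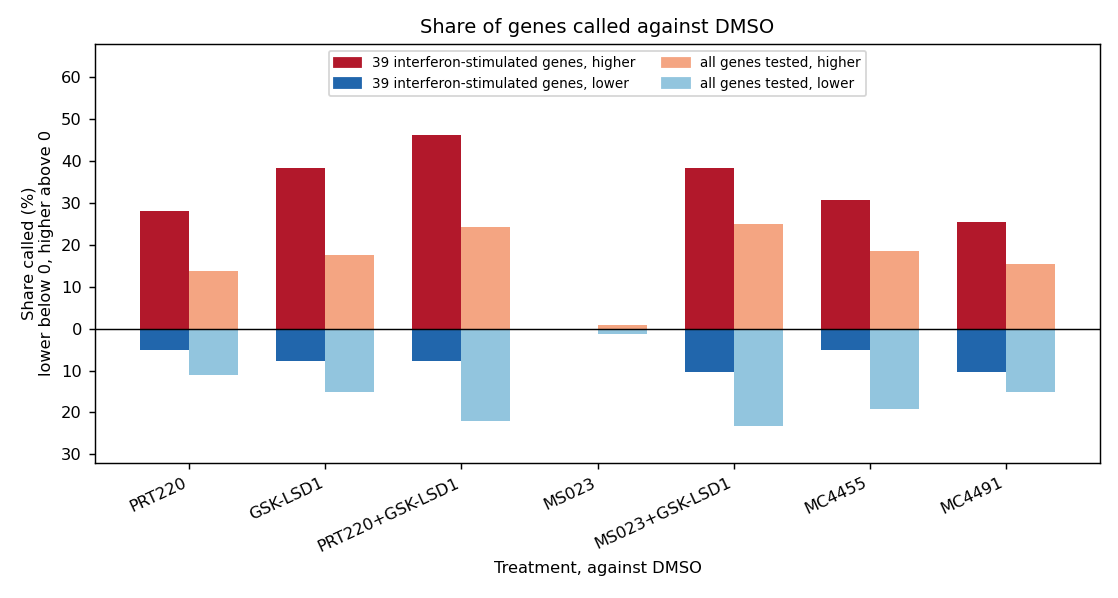
Bars give the share in percent of the 39 tested interferon-stimulated genes (dark) and of all 16640 genes tested (pale) that were called higher (above 0) or lower (below 0) in each treatment against DMSO. The dark bar above 0 is tallest for PRT220+GSK-LSD1 (46.2%, against 24.4% of all genes), and MS023 has no dark bar.

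Over the 7 treatments, 31 genes were called at least once. Of these, 23 were called only higher, 7 only lower (ISG15, IFIT2, IFIT3, IFIH1, USP18, XAF1 and BST2), and ADAR in both directions. The 8 genes called in no treatment were IFI6, IFI44, IFIT1, IFITM3, MX1, OASL, IRF7 and DHX58, which include several of the genes usually read as markers of an interferon response. IFI44, IFIT1 and IRF7 had only 234, 414 and 116 counts over all libraries, so a change in them could be missed. MX2, OAS1, IRF1, HERC5, RSAD2, SAMHD1, TRIM22 and GBP2 were called higher in at least 5 treatments. How many of all genes were called at least once, or higher in at least 5 treatments, was not counted. These counts over the 7 treatments therefore have no background and do not set the listed genes apart. With MS023+GSK-LSD1, 25.1% of all genes tested were called higher and 23.3% lower.

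**Figure D2:**
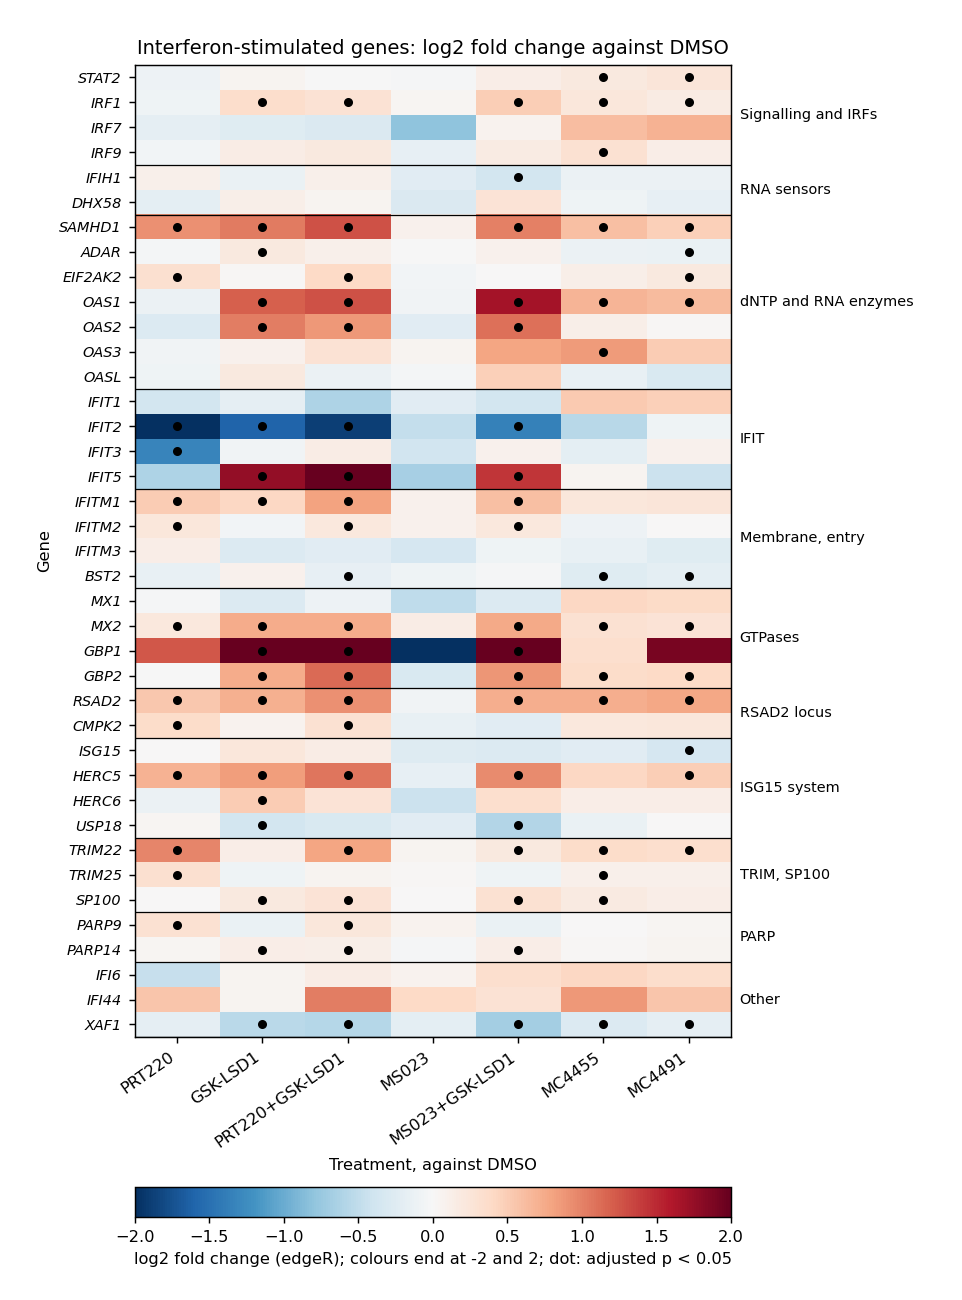
Each cell gives the log2 fold change of 1 gene (rows, by role) with 1 treatment against DMSO (columns), red for higher and blue for lower, with colours ending at -2 and 2, and a dot marks an adjusted p below 0.05. SAMHD1 is red with a dot in 6 of the 7 columns, XAF1 is blue with a dot in 5, and MS023 has no dot; GBP1 and IRF7 rest on few counts.

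Among the transcription factors of the pathway, IRF1, an activator of interferon and antigen presentation genes, was higher in the 3 groups with GSK-LSD1 and with both MC compounds. IRF1 had 73.3, 73.0 and 73.7 CPM with GSK-LSD1, 71.2, 71.2 and 68.5 CPM with PRT220+GSK-LSD1 and 81.3, 80.2 and 81.6 CPM with MS023+GSK-LSD1, against 53.3, 60.5 and 58.9 CPM in DMSO. It had 57.4, 53.1 and 52.9 CPM with PRT220 and 56.7, 60.5 and 60.7 CPM with MS023. All 9 libraries with GSK-LSD1 lay above every library of DMSO, PRT220 and MS023. They overlapped MC4455, which had 67.3, 71.1 and 64.1 CPM, and lay above MC4491, with 66.5, 65.0 and 61.8 CPM. The log2 fold change was 0.35 with GSK-LSD1 (SE 0.0479, adjusted p 7.22e-06), 0.29 with PRT220+GSK-LSD1 and 0.49 with MS023+GSK-LSD1. It was 0.23 with MC4455, and 0.16 with MC4491, where the call was lost without DMSO A (adjusted p 0.103) or MC4491 A (0.108).

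STAT2, a transcription factor of the type I response, and IRF9, which gives that complex its DNA contact, moved little. STAT2 averaged 136 ± 9 CPM with MC4455 and 141 ± 8.54 CPM with MC4491, against 119 ± 9.91 CPM in DMSO (SD, n = 3 each), with log2 fold changes of 0.19 and 0.24. The MC4455 call was lost without DMSO A (adjusted p 0.0894) or MC4455 B (0.119). With the other 5 treatments STAT2 was not called, and its log2 fold changes lay between -0.10 and 0.13. IRF9 was called with MC4455 only, at 16.3 ± 1.51 CPM, against 13.1 ± 1.62 CPM in DMSO, and that call was lost when any of 4 libraries was left out (adjusted p 0.0879 to 0.169) or with the term for the 8 libraries (0.0582). IRF9 shares 1838 exon bases on the same strand with AL136295.5 and 49.5% of its 31-base sequences with other genes, so its counts are uncertain. IRF7, the factor that amplifies the type I response, was between 0 and 0.388 CPM in all 24 libraries and was called in no comparison.

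SAMHD1 (chr20:36889773-36951901, minus strand), which hydrolyses deoxynucleotides and restricts retroviruses in myeloid cells, had the lowest adjusted p of the 39 genes in 5 of the 7 treatments. It had 492, 525 and 558 CPM with PRT220, 560, 589 and 584 CPM with GSK-LSD1 and 669, 692 and 683 CPM with PRT220+GSK-LSD1, against 275, 287 and 278 CPM in DMSO. It had 293, 285 and 309 CPM with MS023, 570, 581 and 528 CPM with MS023+GSK-LSD1, 436, 381 and 453 CPM with MC4455 and 385, 394 and 395 CPM with MC4491. The groups other than MS023 did not overlap with DMSO, and the combination with PRT220 was highest in every library. On the log2 scale the fold change was 0.91 with PRT220 (SE 0.0542, adjusted p 3.29e-10), 1.04 with GSK-LSD1 (SE 0.0543, adjusted p 5.33e-12) and 1.28 with PRT220+GSK-LSD1 (SE 0.0546, adjusted p 1.63e-13). It was 1.00 with MS023+GSK-LSD1, 0.60 with MC4455 and 0.48 with MC4491, and 0.08 with MS023 (adjusted p 0.527). SAMHD1 overlaps TLDC2 on the opposite strand by 1159 exon bases, and the libraries were unstranded, but TLDC2 averaged 0.271 CPM.

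OAS1 (chr12:112906777-112933222) and OAS2 (chr12:112978395-113011723) make 2′-5′ oligoadenylates on sensing double-stranded RNA. OAS1 had 2.43, 2.31 and 2.31 CPM with GSK-LSD1, 2.00, 2.60 and 2.86 CPM with PRT220+GSK-LSD1 and 3.30, 3.39 and 3.10 CPM with MS023+GSK-LSD1, against 1.01, 0.857 and 1.22 CPM in DMSO. With PRT220 it had 0.909, 1.00 and 0.914 CPM, and with MS023 1.18, 0.799 and 0.939 CPM. Every library with GSK-LSD1 was above every DMSO library, and those with PRT220 or MS023 alone overlapped DMSO. The log2 fold change was 1.2 with GSK-LSD1 (SE 0.18, adjusted p 2.22e-05), 1.28 with PRT220+GSK-LSD1 and 1.67 with MS023+GSK-LSD1, and -0.12 with PRT220 (adjusted p 0.742). OAS1 was also called with MC4455 (log2 fold change 0.68) and with MC4491 (0.64), and the MC4491 call was lost without DMSO B (adjusted p 0.0629) or MC4491 B (0.0551).

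OAS2 was called higher in the 3 groups with GSK-LSD1. It had 10.5, 12.6 and 13.5 CPM with GSK-LSD1, 10.2, 11.4 and 11.2 CPM with PRT220+GSK-LSD1 and 12.7, 14.6 and 11.3 CPM with MS023+GSK-LSD1, against 3.98, 6.18 and 7.76 CPM in DMSO. The log2 fold changes were 1.02 (adjusted p 7.34e-05), 0.87 (0.000273) and 1.10 (2.23e-05), and those of the 4 treatments without GSK-LSD1 lay between -0.27 and 0.12, none called. OAS3, which was named for its values, was called higher with MC4455 (0.85, adjusted p 0.0491), a call lost with a term in the fit for the 8 libraries with low RRP9 (adjusted p 0.059). OASL, which lacks the synthetase activity, was called in no treatment.

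EIF2AK2, the kinase PKR that stops translation on sensing double-stranded RNA, was higher in both groups with PRT220. It is named here, as are RSAD2, CMPK2, PARP9, TRIM25, USP18, SP100 and PARP14, because of the values seen. EIF2AK2 had 50.1, 54.9 and 56.3 CPM with PRT220 and 53.5, 57.4 and 59.9 CPM with PRT220+GSK-LSD1, against 46.3, 42.5 and 40.9 CPM in DMSO. All 6 libraries with PRT220 were above the 3 DMSO libraries. The log2 fold change was 0.32 with PRT220 (adjusted p 0.000226) and 0.40 with the combination (5.15e-06), and 0.03 with GSK-LSD1 and 0.00 with MS023+GSK-LSD1, neither called. It was also called with MC4491 (0.19). ADAR, which edits adenosines in double-stranded RNA, had 399, 401 and 389 CPM with GSK-LSD1, against 367, 339 and 328 CPM in DMSO, a log2 fold change of 0.20 (adjusted p 0.00218). It was called lower with MC4491 (-0.13), a call lost without DMSO A (adjusted p 0.206), MC4491 A (0.0679) or MC4491 B (0.136), and with the term for the 8 libraries (0.0544).

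IFIH1, the cytoplasmic RNA sensor MDA5, was lower with MS023+GSK-LSD1 only, at 5.68, 6.57 and 5.89 CPM, against 7.96, 7.22 and 8.08 CPM in DMSO. Its log2 fold change there was -0.36 (adjusted p 0.0015). DHX58, the related sensor LGP2, was called with no treatment against DMSO.

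**Figure D3:**
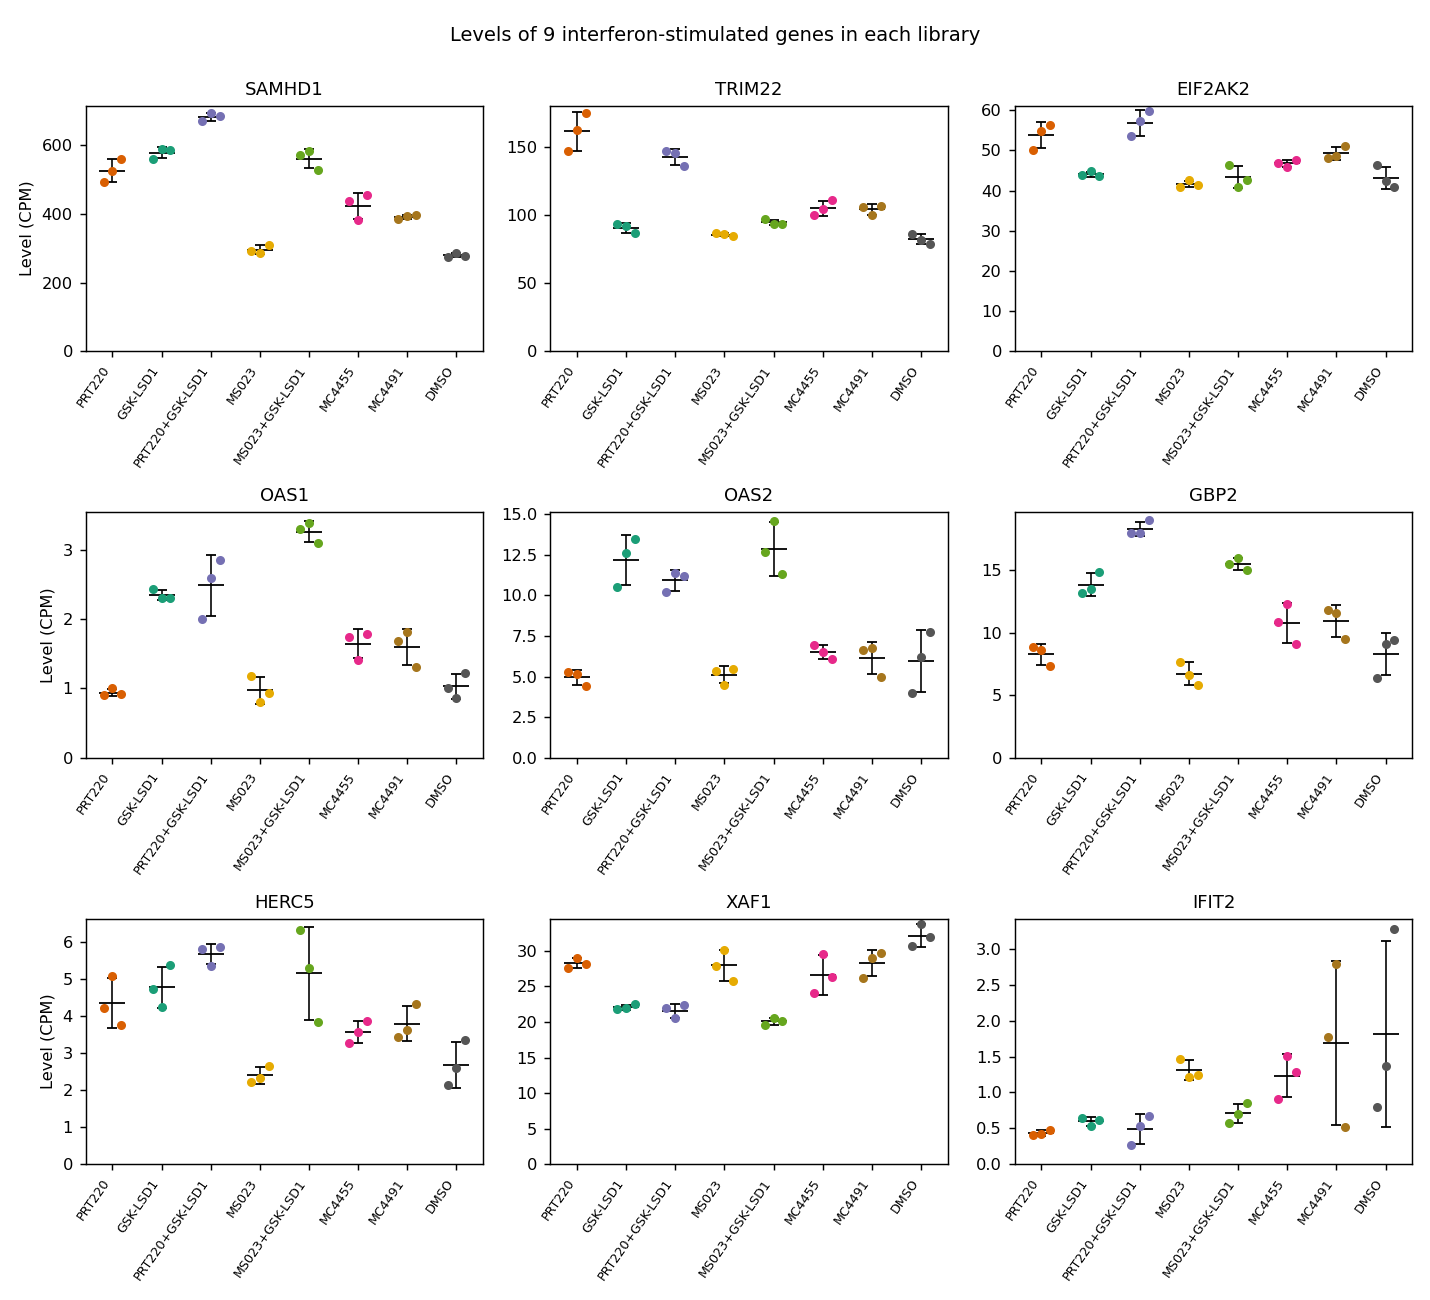
Points give the level in CPM of 9 interferon-stimulated genes in each of the 3 libraries of a group (7 treatments, then DMSO), with the mean as a line and bars of 1 SD. OAS1, OAS2 and GBP2 stand high in the 3 groups with GSK-LSD1, TRIM22 and EIF2AK2 in the groups with PRT220, SAMHD1 and HERC5 in both kinds of group, and IFIT2 is high in DMSO C (3.27 CPM).

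The 4 IFIT genes, whose products bind viral RNA, did not move together. IFIT5 had 0.722, 1.10 and 0.823 CPM with GSK-LSD1, 1.01, 1.23 and 1.03 CPM with PRT220+GSK-LSD1 and 0.608, 0.669 and 0.825 CPM with MS023+GSK-LSD1, against 0.355, 0.148 and 0.293 CPM in DMSO. The 9 libraries with GSK-LSD1 did not overlap with DMSO, where IFIT5 had only 13, 9 and 13 counts. Its log2 fold change was 1.76 with GSK-LSD1 (SE 0.349, adjusted p 0.000471), 2.06 with PRT220+GSK-LSD1 and 1.43 with MS023+GSK-LSD1, and it was not called with the other 4 treatments. IFIT2 ran the other way, with 0.411, 0.421 and 0.481 CPM with PRT220, 0.650, 0.527 and 0.617 CPM with GSK-LSD1 and 0.271, 0.527 and 0.673 CPM with PRT220+GSK-LSD1, against 0.791, 1.37 and 3.27 CPM in DMSO. These 9 libraries were below all 3 DMSO libraries, which spread widely with DMSO C the highest. With MS023+GSK-LSD1 it had 0.579, 0.693 and 0.853 CPM, which overlapped DMSO A. On the log2 scale the fold change was -2.04 with PRT220 (SE 0.493, adjusted p 0.00401), -1.60 with GSK-LSD1, -1.88 with PRT220+GSK-LSD1 and -1.35 with MS023+GSK-LSD1. Without DMSO C the last 3 calls were lost, with adjusted p-values of 0.163, 0.051 and 0.29, and the MS023+GSK-LSD1 call was also lost without its libraries A (0.0812) or B (0.0593). With PRT220 the value without DMSO C was -1.32 and was still called. Among the 16 libraries without low RRP9, which leave out DMSO C, the values were -0.87 with GSK-LSD1, -1.46 with PRT220+GSK-LSD1 and -0.61 with MS023+GSK-LSD1, none called.

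IFIT3 was called lower with PRT220 only, at 0.780, 0.561 and 0.529 CPM, against 0.873, 1.48 and 2.32 CPM in DMSO. Its log2 fold change was -1.32 (SE 0.332, adjusted p 0.00543). IFIT1 was between 0.217 and 0.99 CPM in all 24 libraries and was called in no treatment, although its promoter window holds the element 2 times.

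Of the membrane proteins, IFITM1, which blocks fusion of enveloped viruses, was higher with PRT220 and in all 3 groups with GSK-LSD1. It had 46.8, 40.5 and 38.0 CPM with PRT220, 41.2, 35.1 and 41.0 CPM with GSK-LSD1, 41.0, 58.1 and 54.5 CPM with PRT220+GSK-LSD1 and 45.8, 45.1 and 42.2 CPM with MS023+GSK-LSD1, against 25.0, 32 and 30.9 CPM in DMSO. None of these 12 libraries overlapped with DMSO. The log2 fold changes were 0.51, 0.41, 0.80 and 0.60 in this order of treatments, and the GSK-LSD1 call was lost without DMSO A (adjusted p 0.0529). IFITM1, IFITM2 and IFITM3 share 35.3%, 45.2% and 36.4% of their 31-base sequences with other genes, mostly each other, so the split of reads between them is uncertain. BST2, which tethers budding virions, was called lower with PRT220+GSK-LSD1 (-0.17), MC4455 (-0.25) and MC4491 (-0.19). The MC4455 call stood when any single library was left out, and the calls for PRT220+GSK-LSD1 and MC4491 were each lost without any 1 of 4 libraries, DMSO A and DMSO C among them (adjusted p 0.07 to 0.161).

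GBP2 and GBP1, guanylate-binding GTPases of the interferon gamma response, were higher in the 3 groups with GSK-LSD1. GBP2 had 13.2, 13.5 and 14.9 CPM with GSK-LSD1, 18.0, 18.0 and 19.0 CPM with PRT220+GSK-LSD1 and 15.5, 16 and 15.0 CPM with MS023+GSK-LSD1, against 6.41, 9.11 and 9.43 CPM in DMSO. With PRT220 it had 8.90, 8.62 and 7.34 CPM, within the DMSO range. The log2 fold change was 0.74 with GSK-LSD1 (SE 0.131, adjusted p 0.000157), 1.13 with PRT220+GSK-LSD1 (adjusted p 4.47e-07), 0.89 with MS023+GSK-LSD1 and -0.01 with PRT220. It was 0.37 with MC4455 and 0.40 with MC4491, calls that were lost without DMSO A (adjusted p 0.194 and 0.161) and without libraries A or B of either compound.

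GBP1 was almost silent without GSK-LSD1. Over the 3 libraries of a group it had 57 counts with GSK-LSD1, 129 with PRT220+GSK-LSD1 and 47 with MS023+GSK-LSD1, against 3 in DMSO. There were 7 counts with PRT220, 0 with MS023, 3 with MC4455 and 10 with MC4491. Per unit of depth, the ratio to DMSO was 21.7 with GSK-LSD1 (95% interval 7.06 to 108), 52.3 with PRT220+GSK-LSD1 (17.5 to 257) and 19.9 with MS023+GSK-LSD1 (6.41 to 100), intervals that cover counting error only. GBP1 was called higher in these 3 groups, and it shares 18.4% of its 31-base sequences with other genes, mostly the pseudogene GBP1P1. It passed the filter on low counts only through the groups with GSK-LSD1, so these calls are no independent support.

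Of the dynamin-like GTPases, MX2, which acts against retroviruses, was higher with GSK-LSD1 (19.3, 20.6 and 22.5 CPM), PRT220+GSK-LSD1 (19.8, 20.9 and 21.6 CPM) and MS023+GSK-LSD1 (19.7, 21.6 and 21.4 CPM), against 12.1, 12.8 and 12.3 CPM in DMSO. The log2 fold changes were 0.74, 0.74 and 0.75. MX2 was also called with MC4455 (0.31) and MC4491 (0.28), the second lost without MC4491 A (adjusted p 0.062). The call with PRT220 (0.21, adjusted p 0.0496) was lost without any 1 of 5 libraries, with adjusted p-values of 0.0772 to 0.229, and with the term for the 8 libraries (0.108). MX1, its neighbour on chromosome 21 and a usual marker of type I interferon, was between 0.671 and 2.08 CPM in all libraries and was called with no treatment.

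RSAD2, or viperin, which makes a chain-terminating nucleotide, was called higher in all 6 groups other than MS023. It had 3.25, 3.50 and 3.03 CPM with PRT220, 4.12, 3.46 and 3.42 CPM with GSK-LSD1 and 4.53, 4.36 and 3.72 CPM with PRT220+GSK-LSD1, against 2.10, 2.18 and 2.44 CPM in DMSO. The groups did not overlap with DMSO, and the log2 fold changes were 0.54, 0.71 and 0.91. They were 0.72 with MS023+GSK-LSD1, 0.73 with MC4455 and 0.78 with MC4491. CMPK2, its neighbour and a nucleotide kinase that feeds viperin, was called with PRT220 (0.36) and PRT220+GSK-LSD1 (0.31). With a term for the 8 libraries with low RRP9 in the fit, the CMPK2 call with PRT220 was lost (0.29, adjusted p 0.0725).

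ISG15 is a ubiquitin-like modifier, HERC5 is its main ligase in human cells and USP18 removes it and damps the receptor. ISG15 had 8.13, 8.20 and 8.38 CPM with GSK-LSD1 and 5.44, 6.49 and 4.70 CPM with MC4491, against 6.65, 6.59 and 7.79 CPM in DMSO. Its log2 fold change with GSK-LSD1 was 0.23 (adjusted p 0.12), and it was called lower with MC4491 (-0.34), a call lost without DMSO C, MC4491 A or MC4491 C (adjusted p 0.081 to 0.142) and with the term for the 8 libraries (0.0552). HERC5 had 4.22, 5.09 and 3.75 CPM with PRT220, 4.72, 4.26 and 5.37 CPM with GSK-LSD1, 5.81, 5.36 and 5.86 CPM with PRT220+GSK-LSD1 and 6.34, 5.30 and 3.84 CPM with MS023+GSK-LSD1, against 2.13, 2.59 and 3.36 CPM in DMSO. All 12 treated libraries were above DMSO. The log2 fold changes were 0.69, 0.83, 1.07 and 0.94, with adjusted p-values of 0.00586, 0.000917, 3.66e-05 and 0.000189. Among the 8 libraries with low RRP9 alone, where DMSO is 1 library, the value with PRT220 was 0.36 and was not called (adjusted p 0.329). HERC5 was called with MC4491 (0.49), a call that was lost without any 1 of 5 libraries (adjusted p 0.0557 to 0.184). USP18 was lower with GSK-LSD1 (3.73 ± 0.213 CPM) and MS023+GSK-LSD1 (3.23 ± 0.15 CPM), against 4.83 ± 0.535 CPM in DMSO. It shares 30.8% of its 31-base sequences with other genes, mostly USP41, and the GSK-LSD1 call was lost with the term for the 8 libraries (adjusted p 0.0523).

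TRIM22 (chr11:5689689-5737089), a nuclear E3 ligase with antiviral activity that p53 and interferon both induce, was the gene with the lowest adjusted p under PRT220. It had 147, 163 and 175 CPM with PRT220 and 147, 146 and 136 CPM with PRT220+GSK-LSD1, against 86.4, 81.7 and 79.1 CPM in DMSO. It had 93.7, 92 and 86.8 CPM with GSK-LSD1 and 86.9, 85.9 and 84.6 CPM with MS023. The 6 libraries with PRT220 stood apart from all of these. The log2 fold change was 0.97 with PRT220 (SE 0.0542, adjusted p 2.51e-10), 0.79 with PRT220+GSK-LSD1 (adjusted p 1.89e-10) and 0.14 with GSK-LSD1 (adjusted p 0.0523). It was 0.36 with MC4455, 0.34 with MC4491 and 0.20 with MS023+GSK-LSD1, all called.

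TRIM25, the E3 ligase that activates RIG-I, was called higher with PRT220, at 235 ± 11.4 CPM, against 188 ± 6.34 CPM in DMSO (log2 fold change 0.32), and with MC4455 (0.10), but not with PRT220+GSK-LSD1 (0.05, adjusted p 0.356). PARP9, which forms a complex with the ligase DTX3L, was called with PRT220 (0.30, adjusted p 0.0174) and PRT220+GSK-LSD1 (0.23, 0.0474). The PARP9 call with PRT220 was lost with the term for the 8 libraries (adjusted p 0.0524). PARP14, a macro-domain ADP-ribosyltransferase, was called in the 3 groups with GSK-LSD1, by 0.12 to 0.14 on the log2 scale.

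XAF1, a pro-apoptotic partner of XIAP, was the gene most often called lower. It had 21.8, 21.9 and 22.5 CPM with GSK-LSD1, 21.9, 20.5 and 22.4 CPM with PRT220+GSK-LSD1 and 19.6, 20.6 and 20.1 CPM with MS023+GSK-LSD1, against 30.6, 33.8 and 31.9 CPM in DMSO. The groups did not overlap, and the log2 fold changes were -0.54 (SE 0.068, adjusted p 2.25e-06), -0.57 and -0.68. XAF1 was also called lower with MC4455 (-0.27, adjusted p 0.00398) and MC4491 (-0.18, adjusted p 0.0465), the second lost without any 1 of 4 libraries (adjusted p 0.0657 to 0.176) and with the term for the 8 libraries (0.0536).

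The series asks how inhibitors of PRMT5 and LSD1 act together, so each combination was set against its single agents. Against PRT220, PRT220+GSK-LSD1 had 14 genes higher and 4 lower (19.4% and 18.8% of all genes). The higher genes included IFIT5 (log2 fold change 2.67), OAS1 (1.40), GBP2 (1.14), OAS2 (1.14) and IFIT3 (1.47), and the lower ones TRIM25 (-0.28) and XAF1 (-0.39). IFIT3 had 1.23, 2.37 and 1.63 CPM in the combination, against 0.780, 0.561 and 0.529 CPM with PRT220. Against GSK-LSD1, PRT220+GSK-LSD1 had 8 genes higher and 1 lower (7.01% and 8.34% of all genes). The largest of these differences was TRIM22 (0.65, adjusted p 1.52e-07), and EIF2AK2 (0.37), PARP9 (0.35), SAMHD1 (0.24) and IFITM2 (0.26) were also higher and BST2 (-0.25) lower, the last lost without PRT220+GSK-LSD1 A (adjusted p 0.0529). This count was 5 without PRT220+GSK-LSD1 B or without PRT220+GSK-LSD1 C, and 4 among the 16 libraries without low RRP9. Of all genes, 1662, 2000 and 2018 were called in these fits, against 2553 in the main fit. The calls for GBP2 (0.40) and IFITM1 (0.39) in this comparison were lost when single libraries of either group were left out, with adjusted p-values up to 0.124 and 0.142.

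The interaction term asks whether the combination departs from the sum of its single agents on the log2 scale. For PRT220 and GSK-LSD1, 1 of the 39 genes was called, where 0.541% of all genes were called in either direction. SAMHD1 averaged 681 ± 11.5 CPM in the combination, 525 ± 33.0 CPM with PRT220, 578 ± 15.6 CPM with GSK-LSD1 and 280 ± 6.27 CPM in DMSO (SD, n = 3 each). Its interaction was -0.67 on the log2 scale (SE 0.0761, adjusted p 0.000458), so the combination was less than the sum of both single effects. The term stayed between -0.69 and -0.61 when single libraries were left out. For TRIM22 the interaction was -0.32 (adjusted p 0.0676), and -0.34 (adjusted p 0.0449) with the term for the 8 libraries. For OAS1, OAS2, IRF1 and EIF2AK2 the terms were 0.20 (SE 0.254), 0.12 (SE 0.241), 0.02 (SE 0.0677) and 0.05 (SE 0.0779), none called. GBP2 had 0.41 (SE 0.185, adjusted p 0.456) and IFIT5 0.91 (SE 0.505, adjusted p 0.579), estimates whose errors are wide.

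MS023+GSK-LSD1 against MS023 had 18 genes higher and 3 lower (20% and 20% of all genes), among them SAMHD1 (log2 fold change 0.92), OAS1 (1.74), OAS2 (1.33), GBP2 (1.21), HERC5 (1.10) and IFIT5 (2.09). Among the 16 libraries without low RRP9, which keep 1 MS023 library, IFIT5 was not called (adjusted p 0.051). Against GSK-LSD1, MS023+GSK-LSD1 had 1 gene higher, IFITM2 (0.26), and 1 lower, ISG15 (-0.51, adjusted p 0.00839), where 3.37% of all genes were higher and 7.5% lower. ISG15 had 6.26, 5.90 and 5.21 CPM with MS023+GSK-LSD1, against 8.13, 8.20 and 8.38 CPM with GSK-LSD1. The groups did not overlap, but the ISG15 call was lost without MS023+GSK-LSD1 C (adjusted p 0.058), and then 0 of the 39 were called. The count of the 39 was 1 without GSK-LSD1 A or without GSK-LSD1 B. Of all genes, 580, 695 and 465 were called in these fits, against 1808 in the main fit. The interaction of MS023 and GSK-LSD1 was called by edgeR for 0 of the 39 genes, as for 0% of all genes tested, with 3 of the 39 at an unadjusted p below 0.05, and DESeq2 called 0 of the 39.

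MS023 and PRT220 inhibit different classes of arginine methyltransferase, and the labels give no dose for MS023, so doses cannot be matched. MS023 against PRT220 had 2 genes higher and 11 lower (10.6% and 15.1% of all genes). TRIM22 (-0.91), SAMHD1 (-0.83), HERC5 (-0.86), RSAD2 (-0.61) and EIF2AK2 (-0.37) were lower with MS023, as were CMPK2 (-0.51) and IFITM1 (-0.43), the second lost without PRT220 A (adjusted p 0.0518). IFIT2 (1.58) and IFIT3 (0.94) were higher with MS023 than with PRT220, calls that were lost when single libraries were left out (adjusted p 0.0558 to 0.139).

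MC4455 and MC4491 are named by code only, and their doses were not given. Against MC4491, MC4455 had 0 of the 39 genes called by edgeR, as for 0% of all genes, with 1 of the 39 at an unadjusted p below 0.05, and DESeq2 also called 0. SAMHD1 averaged 423 ± 37.5 CPM with MC4455 and 391 ± 5.50 CPM with MC4491, a log2 difference of 0.11 (SE 0.0538). For OAS1 the difference was 0.04 (SE 0.179) and for RSAD2 -0.06 (SE 0.139).

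Transcripts of the named genes that held at least 20% of their gene in a group mean were tested in the transcript table, where 82076 transcripts were kept. Estimated counts per transcript carry an uncertainty of assignment that the test does not include. For TRIM22, the retained-intron transcript TRIM22-210 held 24.2 ± 2.08% of the gene with PRT220 and 24.5 ± 1.21% with PRT220+GSK-LSD1, against 16.5 ± 0.74% in DMSO (SD, n = 3 each). The log2 fold change of its level was 1.5 with PRT220 (39.6 ± 6.15 CPM, against 14 ± 0.284 CPM in DMSO) and 1.31 with PRT220+GSK-LSD1, while the coding transcript TRIM22-201 had 0.83 and 0.60. All 4 values were called, where 2.66% of all transcripts tested were called higher with PRT220 and 5.53% with PRT220+GSK-LSD1.

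OAS1-201, which codes for 400 residues, rose with GSK-LSD1 by 1.58 on the log2 scale (adjusted p 0.00615) to 1.53 ± 0.112 CPM, against 0.510 ± 0.199 CPM in DMSO. OAS1-208, which codes for 360 residues, had 0.281 ± 0.0189 CPM with GSK-LSD1, against 0.301 ± 0.1 CPM in DMSO, and was not called. ADAR has a long isoform, p150, from an interferon-inducible promoter and a short one, p110. The transcript of 1226 residues, ADAR-202, had 79.7 ± 8.46 CPM with PRT220+GSK-LSD1, against 48.9 ± 11.0 CPM in DMSO, and a log2 fold change of 0.70 (adjusted p 0.045). With GSK-LSD1 its log2 fold change was 0.50 (adjusted p 0.288), and the transcript of 931 residues, ADAR-201, was called lower with MC4455 (-0.46) and in no other treatment. STAT2-201 was lower with PRT220, at 57.0 ± 5.44 CPM, and with PRT220+GSK-LSD1, at 56.9 ± 7.19 CPM, against 80.4 ± 9.90 CPM in DMSO. Both log2 fold changes were -0.50, while the gene as a whole was not called in either, and 83.8% of the gene's counts could be paired with annotated transcripts.

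**Figure D4:**
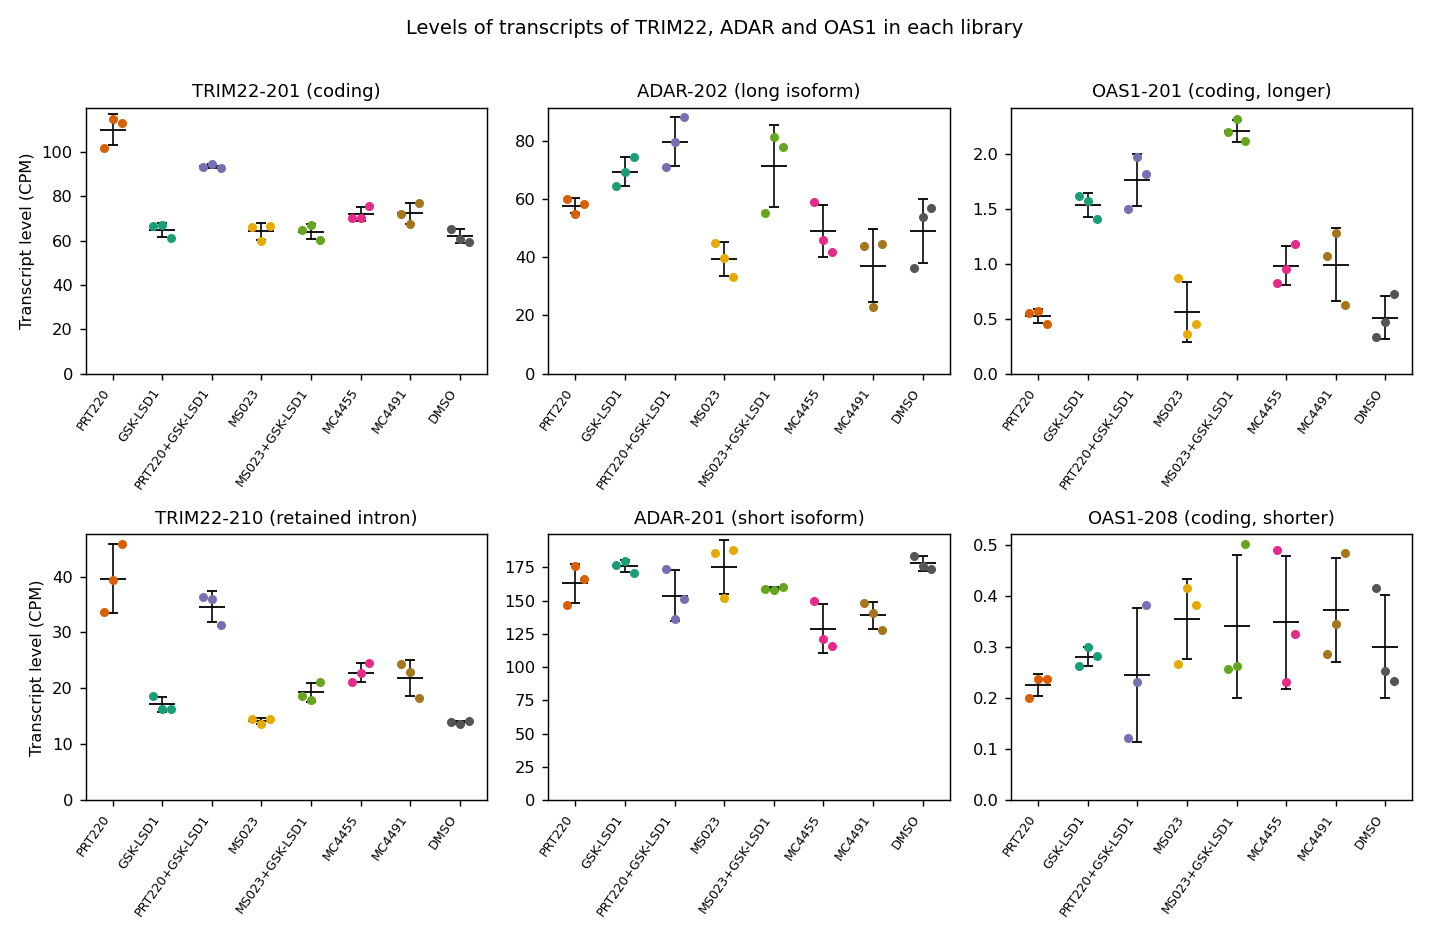
Points give the level in CPM of 2 transcripts each of TRIM22, ADAR and OAS1 in each of the 3 libraries of a group (7 treatments, then DMSO), with the mean as a line and bars of 1 SD. TRIM22-210 and TRIM22-201 stand high in both groups with PRT220, and OAS1-201 in the 3 groups with GSK-LSD1, where OAS1-208 overlaps DMSO.

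The wider pathway was read from lists, whose genes are named here for their values. The shares of all genes called, given above for each treatment, stand as background to these counts: 13.8% higher and 11.1% lower with PRT220, 17.6% and 15% with GSK-LSD1, 24.4% and 22.1% with PRT220+GSK-LSD1, 0.889% and 1.36% with MS023, 25.1% and 23.3% with MS023+GSK-LSD1, 18.5% and 19.2% with MC4455, and 15.5% and 15.2% with MC4491. Nothing particular to a list was tested. None of 10 interferon genes reached the filter: IFNA1, IFNE, IFNG, IFNL1, IFNL2 and IFNL3 were at 0 in all 24 libraries, and the 10 together summed to at most 0.116 CPM in a library. Of 11 genes for receptors, JAK kinases and STATs, 8 were called higher and 0 lower with GSK-LSD1, 9 and 1 with PRT220+GSK-LSD1, 8 and 1 with MS023+GSK-LSD1, 3 and 0 with PRT220, 0 with MS023, and 5 and 1 with each of MC4455 and MC4491. IFNAR2, a chain of the type I receptor, averaged 143 ± 7.57 CPM with GSK-LSD1, against 98.9 ± 2.56 CPM in DMSO (log2 fold change 0.54). JAK2, a kinase of the gamma receptor, was higher with PRT220, at 87.6 ± 8.95 CPM, against 61.4 ± 2.02 CPM in DMSO.

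Of 17 tested nucleic acid sensors and their signalling proteins, 3 were higher and 5 lower with PRT220, 8 and 2 with GSK-LSD1, 9 and 5 with PRT220+GSK-LSD1, 1 and 0 with MS023, 8 and 2 with MS023+GSK-LSD1, 7 and 3 with MC4455 and 6 and 3 with MC4491. IFI16, a sensor of DNA, had 22.2, 24.1 and 25.0 CPM with PRT220, 30.8, 30.2 and 29.8 CPM with GSK-LSD1 and 38.2, 43.5 and 43.4 CPM with PRT220+GSK-LSD1, against 13.1, 15.5 and 14.8 CPM in DMSO. The 3 treatments did not overlap with DMSO, and the combination was above both single agents in every library. The log2 fold changes were 0.71, 1.06 and 1.52. MYD88, the adaptor of most Toll-like receptors, had 0.37, 0.81 and 0.85. AIM2, which starts an inflammasome on DNA, averaged 0.842 ± 0.203 CPM with GSK-LSD1, against 0.146 ± 0.0358 CPM in DMSO. AIM2 was at most 0.24 CPM in any library without GSK-LSD1. It passed the filter on low counts only through the groups with GSK-LSD1, so a call of it there is no independent support.

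A list of 7 further genes held IRF2, IRF3, IRF4, IRF5, IRF8 and the IRF2-binding proteins IRF2BP1 and IRF2BP2. Of these 7, 3 were higher and 1 lower with PRT220, and 0 were called with GSK-LSD1. With the combination and with each of MC4455 and MC4491, 2 were higher and 2 lower. With MS023 0 were called, and with MS023+GSK-LSD1 0 were higher and 1 lower. IRF4 (0.85), IRF5 (0.58) and IRF8 (0.24) were higher with PRT220, and IRF3, which starts interferon transcription, was lower with PRT220 (-0.36) and the combination (-0.34). Of 9 negative regulators, 2 were higher and 0 lower with PRT220, which were PTPN2 (0.30) and the NLR protein NLRC5 (0.40). The counts were 2 and 0 with GSK-LSD1 and with the combination, 0 with MS023, 1 and 1 with MS023+GSK-LSD1, 2 and 1 with MC4455 and 1 and 0 with MC4491. SOCS1, the feedback inhibitor, was between 5.59 and 9.23 CPM in all libraries. A list of 43 further interferon-stimulated genes, 41 of them tested, had 8 higher and 2 lower with PRT220, 14 and 5 with GSK-LSD1, 16 and 5 with PRT220+GSK-LSD1, 2 and 0 with MS023, 16 and 7 with MS023+GSK-LSD1, and 14 and 5 with each of MC4455 and MC4491. IFI30, a lysosomal thiol reductase of antigen-presenting cells, averaged 52.5 ± 0.723 CPM with GSK-LSD1, against 11.5 ± 1.83 CPM in DMSO (log2 fold change 2.18). GBP4 had a log2 fold change of 0.63 with GSK-LSD1 and 1.03 with the combination. CXCL10, a chemokine that interferon gamma induces, was lower with PRT220, at 0.1 ± 0.0549 CPM, against 0.357 ± 0.132 CPM in DMSO. This was not particular to PRT220: CXCL10 had 0.0237, 0.16 and 0.0458 CPM with MS023, 0.026, 0.235 and 0.0895 CPM with MC4455 and 0.0719, 0.133 and 0.0854 CPM with MC4491. With GSK-LSD1 it had 0.818, 0.779 and 0.643 CPM. It had at most 34 counts in a library.

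The calls can also be read by promoter. Of 18 tested genes with the response element letters shown above, 6 were higher and 0 lower with GSK-LSD1 (median log2 fold change 0.07), and of 11 tested genes with a window and no match, 6 were higher and 1 lower (median 0.19). With PRT220+GSK-LSD1, 8 of the 18 were higher and 1 lower, and 5 of the 11 were higher and 1 lower. With PRT220, 5 of the 18 were higher and 1 lower, and 3 of the 11 were higher and 0 lower. With MC4455, 2 of the 18 were higher and 1 lower, and 7 of the 11 were higher and 1 lower. With MC4491 the counts were 3 and 2 of the 18 and 4 and 2 of the 11, with MS023+GSK-LSD1 6 and 1 of the 18 and 4 and 1 of the 11, and with MS023 0 in both. The shares of all genes called in each treatment are those given with the lists. The search required exactly 2 bases between the repeats. Windows of OAS1, XAF1, TRIM25 and CMPK2 hold the repeats with 1 base between them and were counted as no match. The split is therefore not one of genes with and without an element-like site. These counts describe the genes with a window and were not tested.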

How the data were processed

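Gene and transcript values are expected counts (estimated counts), 1 column per library, which the authors deposited. The submitters' processing notes name, with no role or order, STAR 2.7.3a, Salmon 1.2.1, DESeq2 1.28.1, R 4.0.0 and GRCh38, and the annotation release is not given in the sources used here. Expected counts were rounded to whole numbers, filtered with filterByExpr, scaled by TMM and fitted with edgeR 4.0.16 (R 4.3.3) in 1 model over all 24 libraries with 1 coefficient per group. DESeq2 1.42.0 was an alternative. P-values were adjusted by Benjamini-Hochberg over all 16640 genes in each of 15 comparisons, and standard errors are the log2 fold change over the root of the F statistic. The fit was tested on simulated data.

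Genes were named where called with a change of 2-fold or more, with the higher group averaging 1 CPM or more, or among the 3 called with the largest change in a direction of a comparison with a mean of 5 CPM or more. STAT2, IRF1, IRF7, IRF9, ADAR, SAMHD1 and OAS1 were always named. The members, the lists, the 8-library alternatives and this rule were chosen with earlier results of these data known. No pair of libraries within a group was identical (0 of 24). Alternatives were RLE scaling, DESeq2, no filter, only the groups compared, a replicate block, a term for the 8 libraries with low RRP9, only those 8 or the other 16, and leaving out each library. Depth per library is given at the start of the results, and intervals on counts cover counting error only.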

Additional observations from a re-analysis of the deposited data

Results flagged for a closer look

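SAMHD1 was the gene whose response to GSK-LSD1 differed by the presence of PRT220, by a test of the difference itself. The interaction of PRT220 and GSK-LSD1 was -0.67 on the log2 scale (SE 0.0761, edgeR's quasi-likelihood test, adjusted p 0.000458 over all genes). GSK-LSD1 added 0.38 on top of PRT220 and 1.04 on top of DMSO. All 3 combination libraries (669, 692 and 683 CPM) were above those of PRT220, GSK-LSD1 and DMSO.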

How the results depend on the processing

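Of 112 called values of genes named by the rule above, 64 kept direction and call in all alternatives run, 48 lost the call in at least 1, and 0 reversed. Genes named only for their values are not among these. For counts of the 39 genes called, the interaction of PRT220 and GSK-LSD1 had 2 with DESeq2 and 2 with a term for the 8 libraries with low RRP9 (1 in the report), and 1 to 2 when single libraries were left out. With only the groups compared, MC4455 had 8 and MC4491 had 4 against DMSO (14 each in the report), where fewer libraries estimate the spread. Of all genes, 4896 and 2963 were called in these fits, against 6264 and 5112 in the main fit. Leaving out single libraries gave 8 to 13 of the 39 with MC4455 and 6 to 12 with MC4491. MS023+GSK-LSD1 against GSK-LSD1 had 4 with the term for the 8 libraries (2 in the report) and 0 to 3 on leaving out libraries. Of all genes, 2945 were called there with the term and 1808 without it. Among the 16 libraries without low RRP9, PRT220+GSK-LSD1 against GSK-LSD1 had 4 (9 in the report, 5 to 7 on leaving out libraries). Of all genes, 2018 were called there, against 2553 in the main fit. MS023+GSK-LSD1 against MS023 had 1 MS023 library among the 16, so its count is not given. Fewer of the 39 and fewer of all genes were called there than in the main fit. Among the 8 libraries with low RRP9, counts against DMSO were 8 with PRT220, 11 with PRT220+GSK-LSD1 and 9 with MS023+GSK-LSD1, and MS023 against PRT220 had 8 (13, 21, 19 and 13 in the report). Those 8 hold 1 library each of DMSO, PRT220+GSK-LSD1 and MS023+GSK-LSD1, so 2 of these counts set 1 library against 1, and the spread of a lone library is taken from the groups with more. Named values lost their call for 8 of 112 with the term, 15 of 83 among the 16 and 20 of 70 among the 8. The set of 16 holds no PRT220 library and the set of 8 no GSK-LSD1, MC4455 or MC4491 library, so they gave no value for the other comparisons. The cause of the remaining changes was not tested.

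With the replicate block, counts against DMSO were 13 (PRT220), 18 (GSK-LSD1), 20 (PRT220+GSK-LSD1), 0 (MS023), 20 (MS023+GSK-LSD1), 14 (MC4455) and 14 (MC4491). Of all genes, 3945, 5248, 7530, 294, 7871, 6085 and 4840 were called with the block, in the same order. Libraries with the same letter did not deviate together: correlations lay between -0.19 and 0.15, and 1, 1 and 3 of 28 pairs for A, B and C were over 0.1, so the letters were not taken to pair the libraries. IFIT1, IFIT2, MX1 and IRF7 are among the genes with the fewest counts, and their standard errors are wide.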
